A study of Mus musculus with 4 samples.

Results

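The genes described here are 10 members of the JAK-STAT pathway and its feedback inhibitors: the kinase genes Jak1, Jak2 and Jak3, the transcription factor genes Stat3, Stat4, Stat5a and Stat5b, and the inhibitor genes Socs1, Socs3 and Cish. They were taken by symbol from gene tables of 55401 rows, and all 10 were found, each in 1 row. RNA came from lung CD8+ T cells, sorted as CD3+CD8+, of C57BL/6J mice and was sequenced as low-input libraries. The mice were of 2 models that the labels call IPF-LC and LC, without spelling these out, although the series concerns lung fibrosis and antitumour effects. The 4 groups were IPF-LC mice given an isotype antibody, IPF-LC mice given an antibody that depletes CD4+ cells, and LC mice given the same antibodies, so that all groups share the strain, the tissue and the sort. Each group is 1 library, the number of mice behind a library, their age and sex and the time of treatment are not given in the sources used here, and no value below carries a replicate error.

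Cytokine receptors of T cells carry Janus kinases (JAKs) on their inner tails. Binding of a cytokine activates the kinases, which phosphorylate STAT proteins, and these enter the nucleus as dimers and switch on target genes. The receptors that share the common gamma chain, such as those for IL-2, IL-7 and IL-15, use JAK1 and JAK3 and signal largely through STAT5, receptors of the IL-6 family and for IL-10 and IL-21 signal largely through STAT3, and the IL-12 receptor uses JAK2 and TYK2 and signals through STAT4. CIS (the product of Cish), SOCS1 and SOCS3 are themselves induced by STATs and limit the signal at the receptor or the kinase, so their transcripts are often read as traces of recent cytokine signalling.

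Total expected counts lay between 14946569 and 16217672 a library. Levels are printed in CPM, that is counts scaled by TMM to a common depth. Ratios are on the log2 scale, depleted over isotype or IPF-LC over LC, with a 95% counting interval, which covers counting error alone. Reads without molecular identifiers are not independent molecules, and the spread between mice is not in the interval. Levels of different genes were compared as TPM, a relative transcript abundance that allows for transcript length. The CD8 T cell markers, 11 of 11 detected in each library, summed to 7459 and 6559 CPM in IPF-LC (isotype, then depleted). In LC they summed to 6288 and 7109 CPM, and none of the 11 was 2-fold apart within either model. Of these markers, only Cd8a and Cd8b1 encode CD8 itself. Cd8a measured 518 and 353 CPM in IPF-LC (ratio -0.55) and 476 and 452 CPM in LC (-0.07). Cd8b1 measured 972 and 654 CPM in IPF-LC (-0.57) and 693 and 828 CPM in LC (0.26). In IPF-LC, Cd3d, Cd3e, Cd3g, Lck and Thy1 also had ratios below 0, from -0.44 to -0.13. Trac, Trbc1, Trbc2 and Cd2 had ratios above 0 there, from 0.04 to 0.15. The bearing of this on the member ratios was not tested. In such bulk samples, fewer cells of a type and less RNA per cell cannot be told apart.

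By TPM, Jak1 was the most abundant of the 10 genes in every library, at 613 to 682 TPM, and it varied the least, 1.11-fold from the lowest to the highest library. Stat3 (142 to 350 TPM), Socs3 (199 to 298), Stat4 (130 to 183) and Stat5b (90.2 to 163) followed. The ranges of Stat3 and Socs3 overlapped, as did those of Stat4 and Stat5b, while the range of Socs3 lay above that of Stat4. Jak3 (49.9 to 69.8) and Stat5a (27.9 to 71.6) lay lower and overlapped. Cish (22.6 to 44.4), Socs1 (21.8 to 42.0) and Jak2 (12.9 to 39.2) had the lowest mean levels and could not be ordered beyond their spread over the libraries.

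In IPF-LC, all 10 genes were higher in the CD4-depleted library than in the isotype library, and 4 of them, Jak2, Cish, Stat3 and Stat5a, were at least 2-fold higher. In LC none was 2-fold apart: Jak2, Stat5a, Stat5b and Socs1 were moderately higher after depletion, Stat3 was lower, and the rest lay close to 0. All 10 genes were among the 8433 that averaged 10 CPM or more over the libraries. Ratios above 0 were found for 50.1% of the 8433 in IPF-LC and for 56.1% in LC. Of these 8433, 10.1% were at least 2-fold apart in IPF-LC, 4.08% higher and 6.02% lower in the depleted library. In LC 8.43% were, 2.59% higher and 5.85% lower. The median log2 ratio of the 10 genes was 0.84 in IPF-LC and 0.14 in LC, against 0.0016 and 0.057 for all 8433 genes.

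**Figure D1:**
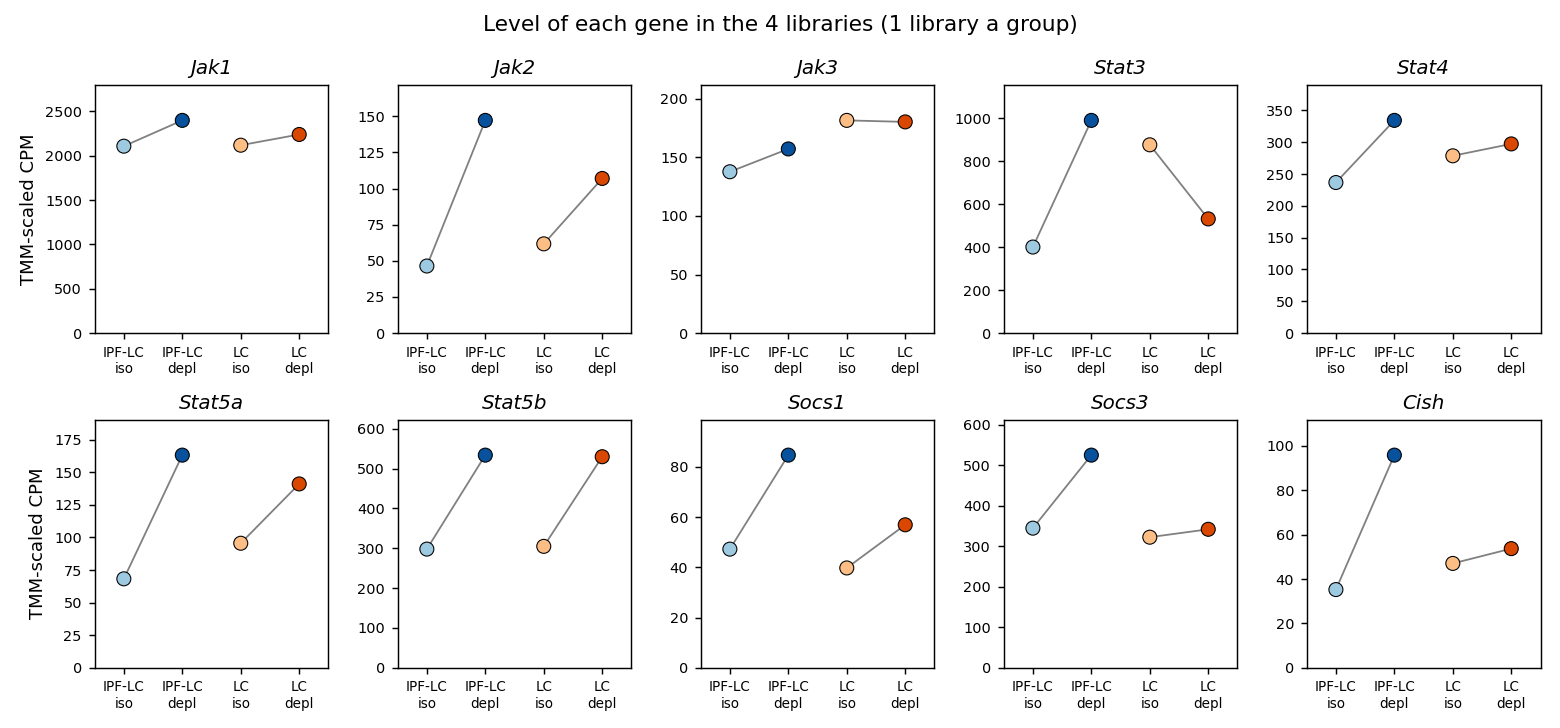
TMM-scaled CPM (linear axes from 0) of each of the 10 genes in the 4 libraries, with grey lines joining the isotype (iso) and CD4-depleted (depl) library of a model. The depleted IPF-LC library is the highest for every gene but Jak3, and the Stat3 lines slope in opposite directions, from 400.0 to 989 CPM in IPF-LC and from 876 to 531 in LC.

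Jak1 encodes the kinase that the gamma chain, gp130 and interferon receptors have in common. Its level was 2108 and 2399 CPM in IPF-LC (isotype, then depleted) and 2119 and 2240 CPM in LC. The depletion ratio was 0.19 (0.17 to 0.21) in IPF-LC and 0.08 (0.06 to 0.10) in LC, and the latter was -0.03 by TPM and -0.18 when scaled to the Cd3 genes (Cd3d, Cd3e and Cd3g), so that no direction is given for it. Scaling to the Cd3 genes moved the median of all genes in LC to -0.20, and relative to that median Jak1 lay at 0.02. Jak1 made up between 84.2 and 86.2% of the TPM of the 4 JAK genes.

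Jak2, which encodes the kinase of the IL-12, IL-23 and interferon gamma receptors, was low in both isotype libraries, at 46.4 CPM in IPF-LC and 61.7 in LC. After depletion it stood at 147 CPM in IPF-LC and 107 in LC, so that both depleted libraries lay above both isotype libraries. The ratios were 1.67 (1.55 to 1.79), or 3.17-fold, in IPF-LC and 0.79 (0.68 to 0.91), or 1.73-fold, in LC. It had the widest range of the 10 genes, and only 0.901% of the 8433 genes had a higher depletion ratio in IPF-LC. Its share of the JAK transcripts by TPM was 1.81% and 4.90% in the isotype and depleted IPF-LC libraries and 2.32% and 3.79% in those of LC.

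Jak3, the kinase gene partnered with the common gamma chain, was the exception in the order of the libraries. It measured 138 and 157 CPM in IPF-LC (isotype, then depleted), against 182 and 180 CPM in LC. The depletion ratio was 0.19 (0.11 to 0.28) in IPF-LC and -0.01 (-0.09 to 0.07) in LC, where no difference was detectable at this depth. Both IPF-LC libraries thus lay below both LC libraries, with model ratios of -0.40 (-0.48 to -0.32) under isotype antibody and -0.20 (-0.28 to -0.12) after depletion.

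Stat3, which encodes the main transcription factor of IL-6, IL-10 and IL-21 signalling, was the gene whose depletion ratios pointed in opposite directions. Its level was 400.0 and 989 CPM in IPF-LC (isotype, then depleted) and 876 and 531 CPM in LC. The ratio was 1.31 (1.26 to 1.35), or 2.47-fold, in IPF-LC and -0.72 (-0.76 to -0.68) in LC, a 1.65-fold lower level. The difference between these ratios was 2.03 (1.97 to 2.09 by counting error). Of the 8433 genes, 21.2% had depletion ratios of opposite sign with both counting intervals off 0, so that the opposition as such was common, and Stat3 was the only one of the 10 genes to show it under TMM scaling. Stat3 was also the only member at least 2-fold apart between the models under isotype antibody, lower in IPF-LC at -1.13 (-1.17 to -1.09). Of all genes, 6.01% were 2-fold apart there, 1.91% higher and 4.1% lower. After depletion the model ratio was 0.90 (0.86 to 0.94); this shares libraries with the depletion ratios and is given for completeness.

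**Figure D2:**
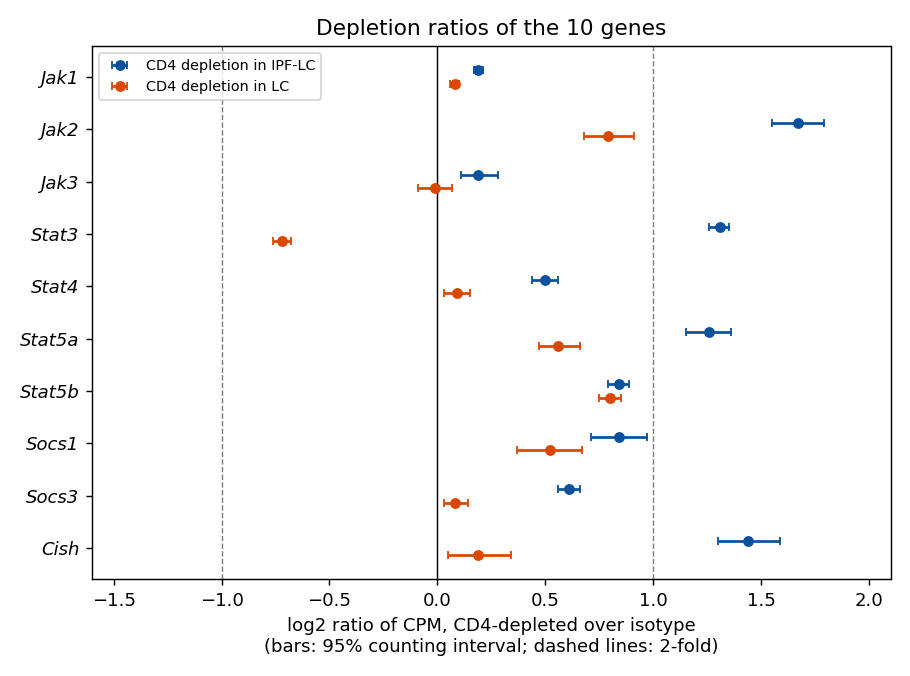
Log2 ratio of CPM, CD4-depleted over isotype, for each of the 10 genes in IPF-LC (blue) and LC (orange), with bars for the 95% counting interval and dashed lines at 2-fold. All 10 blue points lie right of 0 and 4 right of the 2-fold line, whereas no orange point reaches 2-fold and that of Stat3 lies at -0.72.

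Stat5a and Stat5b encode the closely related factors of IL-2, IL-7 and IL-15 signalling and were higher in both depleted libraries than in both isotype libraries. Stat5a stood at 68.3 and 163 CPM in IPF-LC (isotype, then depleted) and 95.6 and 141 CPM in LC. Stat5b stood at 298, 534, 305 and 530 CPM in the same order. Its levels were thus nearly equal in the 2 models with either antibody, with model ratios of -0.03 (-0.09 to 0.03) and 0.01 (-0.03 to 0.05). The depletion ratios of Stat5b were 0.84 (0.79 to 0.89) in IPF-LC and 0.80 (0.75 to 0.85) in LC, and the difference between them, 0.04 (-0.03 to 0.12), was not detectable at this depth. For Stat5a they were 1.26 (1.15 to 1.36), or 2.39-fold, and 0.56 (0.47 to 0.66), or 1.48-fold. In LC, 4.86% of the 8433 genes had a higher ratio than Stat5b and 4.93% a higher one than Jak2, and these were the 2 members at least 1.5-fold higher there. At that fold, 9.28% of all genes were higher and 11% lower in LC, 13% higher and 15% lower in IPF-LC, where 7 members were higher, and 2.75% were higher in both models.

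The 2 STAT5 genes are similar in sequence and their deposited counts are not whole numbers, for example 1066.58 for Stat5a and 4655.42 for Stat5b in the isotype IPF-LC library, so that reads were divided between genes by estimation. Their summed level does not depend on a division between these 2 genes. It was 366 and 697 CPM in IPF-LC (isotype, then depleted) and 400 and 671 CPM in LC, which gave ratios of 0.93 (1.90-fold) in IPF-LC and 0.74 (1.68-fold) in LC. Stat5b exceeded Stat5a by TPM in each library, 3.23-fold, 2.28-fold, 2.33-fold and 2.64-fold in that order. In the RefSeq table of the older build GRCm38.p6, the start sites of Stat5b and Stat5a on chromosome 11 lie 9.07 kb apart on opposite strands, and that of Stat3 lies 79.1 kb from that of Stat5a. The neighbours thus did not share a direction in LC, where Stat3 was lower and the STAT5 genes were higher.

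Stat4, the transcription factor gene of IL-12 signalling, varied 1.41-fold by TPM, with levels of 237, 334, 279 and 297 CPM in the order isotype IPF-LC, depleted IPF-LC, isotype LC and depleted LC. Its depletion ratio was 0.50 (0.44 to 0.56) in IPF-LC and 0.09 (0.03 to 0.15) in LC, the latter -0.01 by TPM and -0.16 when scaled to the Cd3 genes. Summed over Stat3, Stat4, Stat5a and Stat5b, the level was 390.1 and 768 TPM in IPF-LC (isotype, then depleted) and 641 and 592 TPM in LC, lowest in the isotype IPF-LC library. Stat3 made up 36.4%, 45.6%, 53.2% and 34.5% of it in that order, and Stat5b 23.1%, 21.3%, 14.7% and 27.4%. The ratio of Stat3 to summed Stat5a and Stat5b by TPM was 1.20, 1.49, 2.54 and 0.914, so that Stat3 exceeded the STAT5 genes in 3 libraries and was below them in the depleted LC library.

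**Figure D3:**
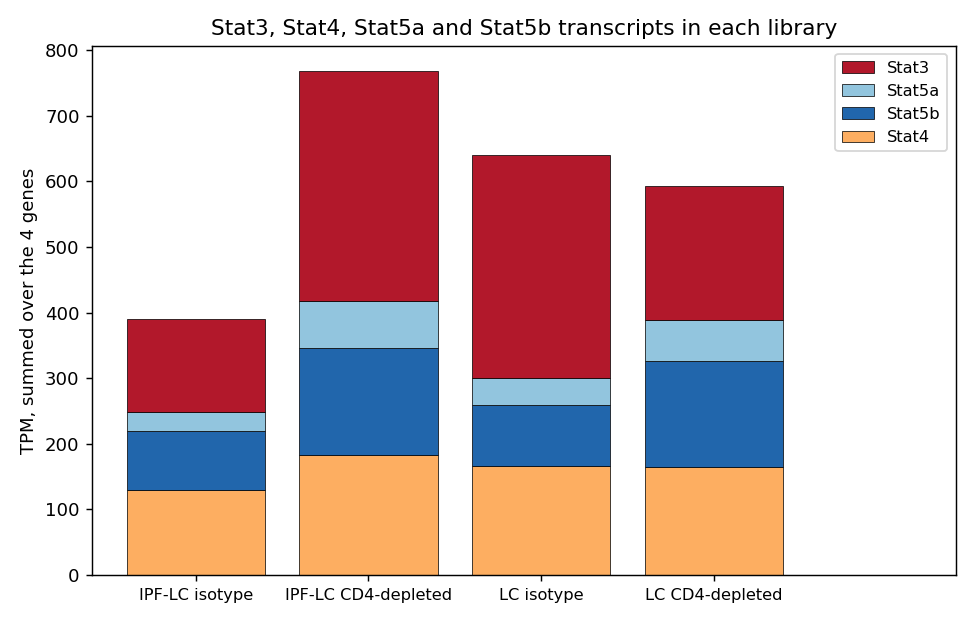
TPM of Stat3 (red), Stat5a and Stat5b (light and dark blue) and Stat4 (orange), stacked for each library on an axis from 0. The red block is the smallest in the isotype IPF-LC library (142 TPM) and the largest in the depleted IPF-LC library (350 TPM), and the blue blocks together are larger in both depleted libraries (235 and 224 TPM) than in both isotype libraries (118 and 134 TPM).

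Among the inhibitors, Cish had the widest range. It encodes CIS, an inhibitor of the IL-2 and T cell receptor pathways that STAT5 induces. Its level was 35.3 and 95.9 CPM in IPF-LC (isotype, then depleted) and 47.0 and 53.7 CPM in LC, so that the depleted IPF-LC library stood apart from the other 3. The depletion ratio was 1.44 (1.3 to 1.59), or 2.72-fold, in IPF-LC. In LC it was 0.19 (0.05 to 0.34), or -0.07 when scaled to the Cd3 genes, and the counting interval of the difference between the models was 1.05 to 1.45. By TPM the ratio in IPF-LC was 0.96, or 1.94-fold, just short of 2-fold. The deposited length of Cish, an average over its transcripts weighted by their estimated share, was 2338 and 3023 bases in IPF-LC (isotype, then depleted) and 2932 and 2869 bases in LC. This was a 29.3% greater length after depletion in IPF-LC, and 6.06% of the 8433 genes differed by more. The other 9 members differed by at most 9.38% in length in that comparison, the value of Stat5a.

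Socs3 encodes the inhibitor of gp130 receptors and was the most abundant SOCS family gene, with 64.8 to 68.1% of the TPM of the 8 genes. Its level was 345 and 525 CPM in IPF-LC (isotype, then depleted) and 322 and 342 CPM in LC. Only the depleted IPF-LC library was high, with a depletion ratio of 0.61 (0.56 to 0.66), against 0.08 (0.03 to 0.14) in LC, which was -0.0037 by TPM and -0.17 when scaled to the Cd3 genes. Socs3 is a target of STAT3, and its level did not follow that of Stat3 over the 4 libraries: the ratio of Socs3 to Stat3 by TPM was 1.41, 0.850, 0.586 and 0.975 in the same order of libraries. Socs1, whose product blocks JAK kinase activity and restrains interferon gamma signalling, measured 47.2, 84.6, 39.7 and 56.9 CPM. It was higher in the depleted library of both models, at 0.84 (0.71 to 0.97) and 0.52 (0.37 to 0.67).

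Cish and Socs3 were the members whose start regions held the palindromic STAT site TTCNNNGAA, which reads the same on both strands. It was searched in windows of 300 bases, 250 before to 50 after each RefSeq start (GRCm38.p6), where it occurred in 2 of the 13 windows of the 10 genes and in 8.3% of 32851 windows of all genes. Cish held 2 sites, found in 0.457% of all windows at that number or more. The sites are shown for these genes because both are known STAT targets. Both were highest in the depleted IPF-LC library, but so was every other member except Jak3, so this does not set them apart. In each sequence, written 5′ to 3′ on the strand of the gene, capitals mark the site.
Socs3, chr11:117969452-117969616, minus strand: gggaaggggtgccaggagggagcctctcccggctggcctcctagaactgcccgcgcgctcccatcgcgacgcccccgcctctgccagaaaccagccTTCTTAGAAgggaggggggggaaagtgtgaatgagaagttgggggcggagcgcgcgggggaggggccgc
Cish, chr9:107296654-107296683, plus strand: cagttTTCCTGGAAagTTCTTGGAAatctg
The Cish stretch lies at the RefSeq start, and part or all of it occurs in a Cish transcript of the GENCODE M21 annotation. Such matches describe the letters and do not show that a factor was bound, and no match in the other 8 genes says only that the site is not in these windows.

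For a test over the 4 libraries together, edgeR's quasi-likelihood test was run on an additive layout of antibody and mouse model, which leaves 1 residual degree of freedom, the interaction. It called 0 of 13050 genes for depletion (0%), with 409 higher and 896 lower at an unadjusted p under 0.05, where DESeq2 called 481 and limma-voom 0. The largest changes among the members were 1.21 (SE 0.277, adjusted p = 0.316) for Jak2, 0.89 (SE 0.239, adjusted p = 0.372) for Stat5a, 0.80 (SE 0.168, adjusted p = 0.296) for Stat5b and 0.80 (SE 0.363, adjusted p = 0.566) for Cish, so that no member passed. DESeq2, by which 0.766% of genes were higher and 2.92% lower, gave adjusted p = 0.0119 for Jak2 and 0.00108 for Stat5b and passed no other member, with 0.0656 for Stat5a. Stat3 had an additive change of 0.27 (SE 0.503, adjusted p = 0.939), the largest error of the 10 genes. For the model term, edgeR called 0 genes, with 92 higher and 173 lower at an unadjusted p under 0.05, DESeq2 called 5 (0.0383%, all lower) and limma-voom 0, and no member passed by any of these.

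Between the models, Stat3 was the only member 2-fold apart under isotype antibody, and none was after depletion. With isotype antibody, 52.5% of all genes had a ratio of IPF-LC over LC above 0. Of the 10 member ratios 8 were below 0, with a median of -0.32 against 0.023 for all genes. Besides Stat3 and Jak3, the lower ones were Stat5a at -0.49 (-0.60 to -0.37), Cish at -0.42 (-0.58 to -0.25), Jak2 at -0.41 (-0.55 to -0.27) and Stat4 at -0.24 (-0.30 to -0.17). After depletion 9 of 10 ratios were above 0, against 50% of all genes, with a median of 0.34 against 0.0002. None was 2-fold apart, where 5.87% of all genes were, 3.3% higher and 2.57% lower. At 1.5-fold, 9.14% were higher and 8.6% lower, and 3 members, Stat3, Socs3 and Cish, were higher. Cish (0.84, 0.71 to 0.96), Socs3 (0.62, 0.57 to 0.67) and Socs1 (0.57, 0.45 to 0.70) were higher in IPF-LC, so that after depletion all 3 inhibitors stood higher in IPF-LC than in LC. These ratios use the same libraries as the depletion ratios and add no independent evidence to them.

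Of the 8 other genes of the families described here, Tyk2, Stat6, Socs4, Socs5 and Socs6 had depletion ratios below 0 in IPF-LC. Those of all 10 members were above 0 there. The members were chosen with earlier results of these data known, so this contrast adds no independent evidence. Of the 7 relatives that averaged 10 CPM or more, 0 were 2-fold apart with depletion in either model. Of all 8433 genes, 10.1% were in IPF-LC and 8.43% in LC. The median of the 7 was -0.22 in IPF-LC and 0.24 in LC. Tyk2, the remaining JAK gene, lay at -0.68 (-0.79 to -0.57) in IPF-LC and 0.24 (0.13 to 0.35) in LC. Stat6, the factor of IL-4 signalling, was at -0.22 and 0.00 in the same comparisons. Socs7 was higher in both, at 0.72 (0.48 to 0.95) and 0.62 (0.29 to 0.96), and Socs6 lower in both, at -0.16 and -0.18. Socs2, a STAT5 target, had a mean of only 5.49 CPM, with 74, 89, 121 and 58 counts.

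Receptors upstream of the members went different ways. Of all 8433 genes averaging 10 CPM or more, 4.08% were at least 2-fold higher with depletion in IPF-LC. In LC, 8.43% were 2-fold apart. In the common gamma chain group, 1 of 6 genes averaging 10 CPM or more was 2-fold higher in IPF-LC and 0 of 6 were 2-fold apart in LC. The gene was Il2ra, the high-affinity IL-2 receptor chain, with 5.50, 13.7, 30.4 and 37.5 CPM in the order isotype IPF-LC, depleted IPF-LC, isotype LC and depleted LC (ratios 1.31 and 0.30, or 0.54 and 0.06 by TPM). Il2rb, the signalling chain for IL-2 and IL-15, stood at 1072, 1871, 1308 and 1350 CPM and was thus high only in the depleted IPF-LC library. Il12rb2, the inducible IL-12 receptor chain, measured 11.1, 62.6, 61.0 and 26.8 CPM, with ratios of 2.50 (2.26 to 2.74) and -1.19 (-1.36 to -1.02). Il10ra, which signals through STAT3, measured 16.6, 57.04, 46.7 and 17.5 CPM, with ratios of 1.78 (1.58 to 1.98) and -1.41 (-1.62 to -1.21). Both were therefore low in the isotype IPF-LC and depleted LC libraries and high in the other 2, as Stat3 was. Of the gp130 receptor genes, Il6st lay at -0.80 in IPF-LC and 0.12 in LC, and Il6ra at -0.93 and -0.32.

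**Figure D4:**
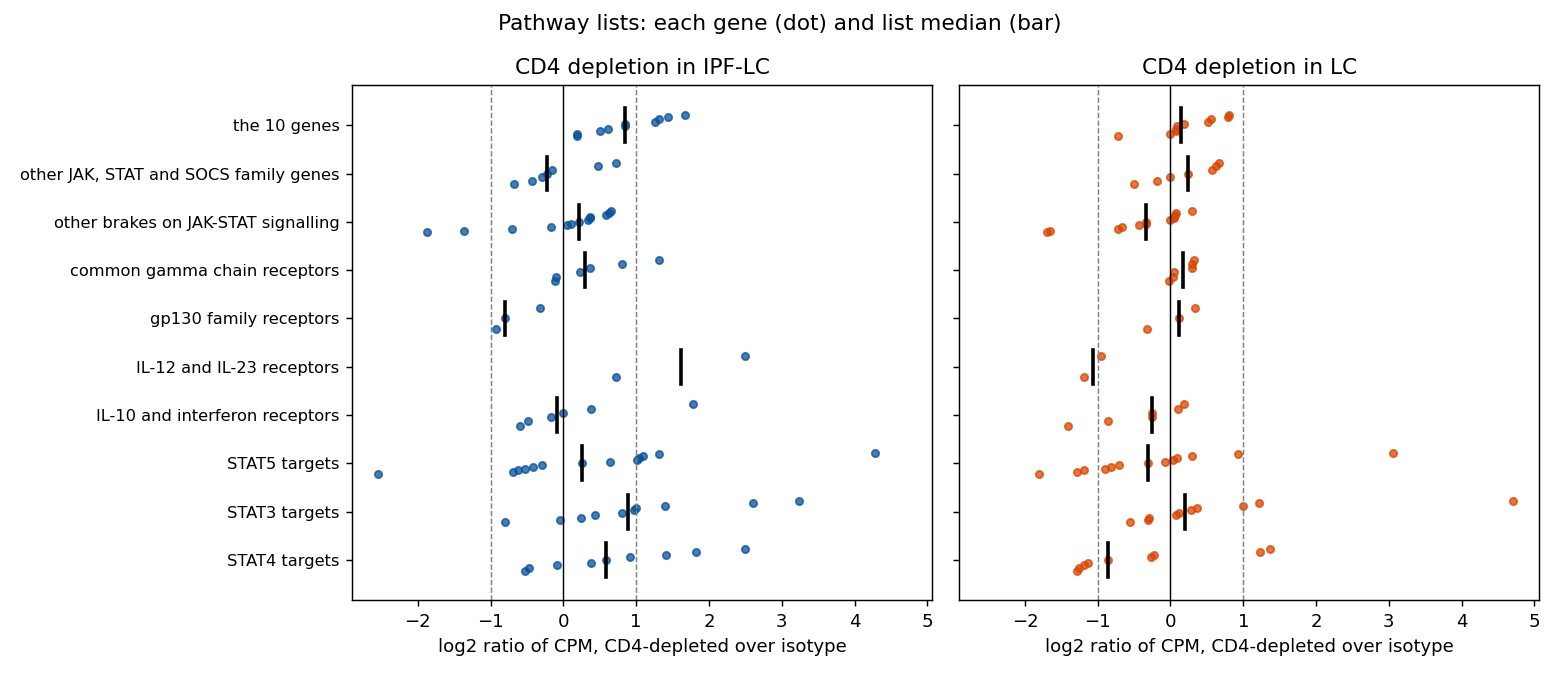
Log2 ratio of CPM, CD4-depleted over isotype, in IPF-LC (left) and LC (right) for each gene averaging 10 CPM or more (dots) in the listed groups, with black bars for the group medians and dashed lines at 2-fold. The bar of the 10 genes lies at 0.84 on the left and 0.14 on the right, and that of the STAT4 targets at 0.58 and -0.86.

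Genes commonly listed as STAT targets were as divided. For comparison, 4.08% of the 8433 genes averaging 10 CPM or more were at least 2-fold higher and 6.02% lower in IPF-LC. In LC, 2.59% were higher and 5.85% lower. The median log2 ratio of all 8433 was 0.0016 in IPF-LC and 0.057 in LC. Of 13 STAT5 targets, 5 were at least 2-fold higher and 1 lower in IPF-LC and 1 higher and 3 lower in LC, with medians of 0.26 and -0.31. Foxp3, the regulatory T cell factor, stood highest among them with ratios of 4.28 (3.71 to 4.99) and 3.06 (2.68 to 3.48). It was the 1 counted as higher in LC. Foxp3 measured 1.47, 29.3, 3.88 and 32.5 CPM in the order isotype IPF-LC, depleted IPF-LC, isotype LC and depleted LC. It averaged 10 CPM only through the depleted libraries, so the minimum level itself favoured a high ratio. The perforin gene Prf1 had ratios of -0.30 and -1.29. Of 10 STAT3 targets, 4 and 2 were at least 2-fold higher in IPF-LC and LC and 0 were lower in either, with medians of 0.89 and 0.20. Il17f (3.23 and 4.70), a cytokine of type 17 T cells, and Rora (1.40 and 1.22), which promotes its expression, were higher in both models. Stat3, by contrast, was lower in LC. Il17f measured 2.5, 23.7, 0.906 and 24.3 CPM in the same order of libraries as Foxp3. It too averaged 10 CPM only through the depleted libraries. So did Maf, another of the 4 STAT3 targets counted as higher in IPF-LC, with 5.06, 31.1, 11.3 and 22.3 CPM. The 9 STAT4 targets had medians of 0.58 and -0.86, with 3 higher and 0 lower in IPF-LC and 2 higher and 4 lower in LC: Fasl, a death ligand, had ratios of 1.41 and -0.27. The lists overlap: Il2ra and Foxp3 are also regulatory T cell markers, and Osm, Ifng, Il12rb2 and Il6st stand in more than 1 list.

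With depletion, 6.02% of all 8433 genes were at least 2-fold lower in IPF-LC and 5.85% in LC, and 4.08% and 2.59% were higher. The share lower in both models was not counted. Of the 13 other brakes on the pathway, none was 2-fold higher with depletion in either model and 2 were 2-fold lower in both. These were Ptpn6, which encodes the phosphatase SHP-1, with 183, 49.5, 258 and 79.0 CPM in the order isotype IPF-LC, depleted IPF-LC, isotype LC and depleted LC, and Usp18, which restrains the type I interferon receptor, with 40.4, 15.6, 50.9 and 16.2 CPM. Their ratios were -1.88 (-2 to -1.77) and -1.37 (-1.59 to -1.16) in IPF-LC and -1.70 (-1.80 to -1.61) and -1.65 (-1.86 to -1.45) in LC. By TPM the ratio of Usp18 in IPF-LC was -0.95, or 1.94-fold lower, just short of 2-fold. Both isotype libraries thus held more transcripts of these brakes than both depleted libraries, the reverse of Jak2, Stat5a and Stat5b. The summed macrophage and monocyte markers were also lower in both depleted libraries, at 1025 against 3099 CPM in IPF-LC and 160 against 4745 CPM in LC, and their part in the ratios of Ptpn6 and Usp18 was not tested.

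The genes closest in pattern to the 2 members of widest range were found by the root mean square difference of centred log2 CPM over the 4 libraries, among 8205 genes. For Jak2 these were Lamc1 (0.0408), Odc1 (0.0575) and Neto2 (0.0842), and for Cish they were Abcb1a (0.0605), Ppp1r16b (0.0617) and Cwc25 (0.065). Odc1, the first enzyme of polyamine synthesis, measured 520, 1700, 654 and 1130 CPM.

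Markers of cells outside the CD8 gate differed between the libraries. The counts of markers given here use no minimum level. Of 19173 genes taken in that way, 3085 were at least 2-fold higher and 3595 lower with depletion in IPF-LC (34.8% either way). In LC, 2276 were higher and 4711 lower (36.4%). The sum of 20 markers of macrophages and monocytes was 3099 and 1025 CPM in IPF-LC (isotype, then depleted) and 4745 and 160 CPM in LC, and 18 of them in IPF-LC and 19 in LC were 2-fold lower or more in the depleted library. Of these sums, Lyz2 gave 2408, 788, 2089 and 33.4 CPM and Chil3 229, 60.95, 1507 and 9.06 CPM. Ccr2 was higher with depletion, at 15.5 and 60.25 CPM in IPF-LC and 76.3 and 102 CPM in LC. In the order of these sums 1, 3, 0 and 8 of the 20 were at 0, Clec7a and Syk among those at 0 in the depleted LC library. Jak2, Stat5a, Stat5b and Socs1 had ratios above 0 where the macrophage and monocyte sum was lower. In LC, Stat3 and this sum were both lower in the depleted library, whereas in IPF-LC Stat3 was higher there and the sum lower. Markers of endothelium, fibroblasts, epithelium, neutrophils, dendritic cells, B cells, natural killer cells and gamma delta T cells summed to between 2.42 and 393 CPM a list and library, and each of these sums was lower in the depleted library of both models. For example, the endothelial sum was 302 and 157 CPM in IPF-LC and 393 and 141 CPM in LC, and the natural killer cell sum 132 and 64.2 CPM and 251 and 19.5 CPM. Pecam1 gave 134, 137, 145 and 129 CPM of the endothelial sums, most of them in the depleted libraries. The other 9 endothelial markers were each 2-fold lower or more with depletion in both models. Of the natural killer cell sum in isotype LC, Tyrobp gave 84.2 CPM and Fcer1g 112 CPM. The 8 regulatory T cell markers summed to 276, 687, 472 and 691 CPM, none was at 0, and 6 of 8 in IPF-LC and 2 of 8 in LC were 2-fold higher or more in the depleted library, while Cd4, which defines most such cells, had 73, 0, 12 and 16 counts. Jak2, Stat5a and Stat5b were higher in the same 2 libraries as this sum. Of the markers, Foxp3, Ctla4, Ikzf2, Tnfrsf4 and Tnfrsf18 were also higher in both depleted libraries than in both isotype libraries. Il2ra, Capg and Ikzf4 were not. Il2ra and Capg were higher in isotype LC (30.4 and 127 CPM) than in depleted IPF-LC (13.7 and 101 CPM). Ikzf4 was high in depleted IPF-LC alone (30.1 CPM), with 4.53 CPM in depleted LC. The 6 CD4 T helper markers used summed to 330.2, 466, 379 and 574 CPM, with Cd4 at 0 in the depleted IPF-LC library. Icos gave 256, 333, 293 and 428 CPM of these sums and Gata3 60.7, 96.4, 69.5 and 108.5 CPM. Zbtb7b, with 28, 3, 24 and 27 counts, was lower with depletion in IPF-LC, as Cd4 was, whereas Cd40lg and Maf were higher. The part of any of these cells in the ratios was not tested.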

How the data were processed

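RNA was sequenced from sorted lung CD8+ T cells in 4 libraries, grouped by the labels. RSEM 1.3.3, STAR 2.7.11a, fastp 0.23.4 and the report tool MultiQC 1.25.2 stand in the submitters' processing notes, as does the build GRCm39 (mm39), and whether strand was used in counting is not given in the sources used here. Each gene has an expected count in the deposited tables, and between 5.49 and 5.89% of these were not whole. The deposited TPM values are the authors' length-scaled relative abundances, and per the file headers a gene length is given in bases. The annotation release is not given in the sources used here.

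Expected counts were rounded and scaled by TMM (edgeR 4.0.16, R 4.3.3). Ratios used a prior count of 0.5 and an exact conditional binomial interval; the interval of a difference of ratios used Poisson errors. No p-value is given for a pair of libraries. The additive model was run in edgeR on genes passing filterByExpr, two-sided, with Benjamini-Hochberg adjustment at 0.05, with DESeq2 1.42.0 and limma 3.58.1 as alternatives. TPM ratios used a pseudocount of 0.5. The model fit was tested on simulated data. Where rows shared a symbol, the higher mean level stood for the gene.

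The 10 members and all lists were chosen with earlier results of these data known. Named genes are the members, 8 relatives, up to 4 genes a list with the largest depletion ratio and a mean of at least 10 CPM, some left out for length, and the 3 nearest patterns of 2 members. The pathway and target lists rest on general knowledge, and some genes and a list are not reported here. Promoter windows are from RefSeq on GRCm38.p6, matched by symbol for 10 of 10 members, and no coordinates on the authors' build are given.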

Additional observations from a re-analysis of the deposited data

Results flagged for a closer look

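For 5 of the 18 JAK, STAT and SOCS genes, the depletion ratios of IPF-LC and LC had opposite signs with both counting intervals off 0, and with 1 library a group the difference was not tested. The same held for 21.2% of all 8433 genes averaging 10 CPM or more, so that opposite signs were common. For Stat3 the IPF-LC ratio exceeded the LC ratio by 2.03 (1.97 to 2.09). Stat2, a factor of type I interferon signalling, was next among those higher in IPF-LC, with 26.3, 36.6, 40.3 and 28.5 CPM in the order isotype IPF-LC, depleted IPF-LC, isotype LC and depleted LC and a difference of 0.98 (0.72 to 1.23). The reverse sign was found for Tyk2, with 115, 71.6, 75.5 and 89.1 CPM and a difference of -0.92 (-1.07 to -0.76). It was also found for Socs4, with 50.4, 37.5, 24.01 and 38.3 CPM and a difference of -1.10 (-1.34 to -0.86), and for Socs5, with 18.1, 14.7, 17.6 and 26.2 CPM and a difference of -0.87 (-1.21 to -0.54). By TPM the ratio of Socs4 in LC was -0.10 in place of 0.67, so that its signs were not opposite in that unit.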

How the results depend on the processing

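No paired analysis was possible because each group holds 1 library. The number of members at least 2-fold apart stayed within 1.5 times its value under every other scaling, TPM, a prior count of 2 and minimum levels of 50 CPM or none, from 3 by TPM to 6 under Cd3 scaling in IPF-LC; at 1.5-fold it was 7 in IPF-LC, 3 in LC and 3 between the depleted libraries. Scaling to the summed counts of Cd3d, Cd3e and Cd3g moved the median of all genes by 0.24 in IPF-LC, -0.20 in LC and -0.43 between the isotype libraries, and members with opposite depletion ratios then numbered 5, as by the signs of TPM, in place of 1. Under it the LC ratios of Jak1 (-0.18), Stat4 (-0.16), Socs3 (-0.17) and Cish (-0.07) and the isotype model ratios of Socs1 (-0.21) and Socs3 (-0.36) changed sign; less that median the LC ratios were 0.02, 0.04, 0.03 and 0.13. By TPM those of Jak1 (-0.03), Stat4 (-0.01) and Socs3 (-0.0037) in LC changed sign. The share of higher genes among those 2-fold apart went from 40.4 to 67.4% in IPF-LC, from 30.7 to 13.2% in LC and from 31.8 to 2.77% between the isotype libraries under Cd3 scaling. With no minimum level 34.8 and 36.4% of genes were 2-fold apart in IPF-LC and LC, and with 50 CPM 4.33 and 3.22%; between the models the shares were 33.5 and 29.5% against 1.76 and 1.01%. The depletion term called 26 genes in edgeR on genes of at least 10 CPM and 481 in DESeq2, and the model term 5 in DESeq2, against 0; the cause was not tested.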

Other observations

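Few ligands of these receptors were measured at more than a low level. Of 22 cytokine genes whose products signal through JAKs, 2 had a mean of at least 10 CPM. Osm, which encodes oncostatin M, a gp130 family cytokine, measured 76.4 and 13.1 CPM in IPF-LC (isotype, then depleted) and 27.2 and 7.78 CPM in LC, with depletion ratios of -2.54 (-2.77 to -2.33) and -1.80 (-2.11 to -1.51). Both depleted libraries thus lay below both isotype libraries, and the summed macrophage and monocyte markers were lower there too. The part of these cells was not tested. Ifng measured 27.6, 25.9, 34.5 and 14.1 CPM in the same order, with ratios of -0.09 (-0.29 to 0.11) and -1.29 (-1.52 to -1.06).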
